A study of Mus musculus with 155 samples.

Results

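Genes for splicing factors and RNA-binding proteins were followed through single cells sorted from the mouse corpus callosum, a tract of white matter, and the subventricular zone beneath it, where new neurons are born in the adult. They were taken by symbol: every gene of the deposited table whose name begins with Sf3, Snrp, Srsf, Hnrnp, Ddx, Dhx, Prpf, U2af or Rbm, together with Nono, Matr3, Ccnl2 and Scaf11. This gave 66 of the 3422 rows in the table. U2af1l4 has 2 rows, which are counted as separate genes throughout, so the 66 stand for 65 gene IDs and the 17 core genes for 16. The rule reads symbols and no measured values, but it was set with earlier results of these data known. The shares called below are thus not blind to the data. By role they are 17 spliceosome core genes, 6 genes for SR proteins, 9 for hnRNP proteins, 16 DEAD and DEAH box helicases, 14 Rbm genes and the 4 single genes. All 66 were matched to GENCODE vM21 on GRCm38. Names sort by family and not by function, so the helicases and Rbm genes include factors that act outside splicing.

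The cells fell into 5 populations, each sequenced by SMART-Seq2, a full-length protocol for single cells. OligNBL (40 cells) carried both reporters, a GFP driven by Gad1 and a Tomato driven by Olig2, and came from a cross of the strains CB6-Tg(Gad1-EGFP)G42Zjh/J and Olig2-tdTomato TH39Gsat/Mmcd. NBL (27 cells) was sorted on GFP from the first strain and OL (22 cells) on Tomato from the second. Per the labels, these 3 populations came from mice killed 6 days after injection of LPC, a lipid that strips myelin. O (29 cells, Tomato) and NB (37 cells, GFP) came from healthy mice that were not injected. All mice were 8 to 10 weeks old, with 5 mice per condition. The titles of the OligNBL cells carry a control mark although their other labels place them in lesioned mice, so every OligNBL value below rests on a label that its own title contradicts. The labels tie no cell to a mouse. Each population therefore counts as 1 sample, no test was possible, and p-values are not given. In the comparisons of OligNBL with NBL and with OL, and of O with NB, the strain and the reporter differ together with the population, and their parts cannot be told apart.

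Splicing removes introns in steps that are carried out by small nuclear ribonucleoproteins, particles of RNA and protein. Sm proteins such as Snrpb, Snrpe and Snrpg form the ring around the RNA of most of these particles, and the Sf3a and Sf3b proteins belong to the particle that recognises the branch point. SR proteins mostly promote the use of exons that they bind, hnRNP proteins often restrain it, and helicases remodel or take apart the RNA-protein complexes. Neural cells use alternative splicing widely as they mature, and neuronal and glial cells differ in many isoforms.

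The deposited values are a normalized signal, and levels are given here as the mean over cells of log2(value + 1) ± the SD between those cells. Values are not corrected for gene length, so levels were compared between populations for 1 gene at a time. Different genes reach the same highest value, so the upper end of a range can reflect a gene's rank in a cell. A difference of at least 2 between a pair of population levels was called, among the 1864 genes whose mean over the 5 population levels was at least 1. Of the 66 genes, 40 passed this minimum and 26 did not. Because a gene can pass the minimum through the population in which it is high, the counts below describe these 40 genes and not the whole family. Median genes detected per cell were 1397 in OligNBL, 1161 in NBL, 950.5 in OL, 1187 in O and 1114 in NB cells, and the depth of sequencing cannot be read from the table. The marker lists followed the labels in part. The 9 measured oligodendrocyte markers averaged 9.63 in OL and 7.30 in O cells but 0.30 in NBL and 0.23 in NB cells. In OligNBL cells, which also carry Tomato, they averaged 0.18. The 10 neuroblast markers averaged 3.48 in OligNBL, 2.52 in NBL, 0.99 in OL, 0.83 in O and 3.56 in NB cells. The 6 progenitor markers averaged 2.67 in OligNBL, 0.97 in NBL, 1.11 in OL, 1.24 in O and 0.41 in NB cells. Of the endothelial list 1 gene of 5, Pecam1, was in the table, with levels of 8.11 in OligNBL, 8.59 in NBL, 8.49 in OL, 10.53 in O and 6.54 in NB cells. Markers of microglia, astrocytes and ependymal cells were not analysed here. Mitochondrial transcripts, 7 of 9 measured, averaged 1.69 in OligNBL, 1.18 in NBL, 1.91 in OL, 2.66 in O and 0.93 in NB cells, and the part of any of these lists in the results was not tested.

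Cells of a population were not independent of each other. By average linkage on the genes that are not among the 66, joined at a mean correlation of 0.4, the cells fell into 20 sets of alike cells, 4 of which held cells of more than 1 population. Split by population, 21 sets of at least 3 cells held 149 cells, and they are numbered below within their population. A high value was often shared by the cells of 1 set, so the levels of sets are given for the genes described most fully. Most sets, among them every OL set, were runs of cells whose own numbers are neighbours. Cell numbers also lie largely in separate blocks by population, in the comparisons of NBL with NB and of OL with O as well. Set and population thus go together with the order of the cells, and the part of that order in the differences was not tested. The share of a gene's variance within populations that lay between sets had a median of 41% over the 40 genes, against 42.9% over all 1864 genes, and ran from 6.96% for Rbm6 to 77% for Srsf6.

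**Figure D1:**
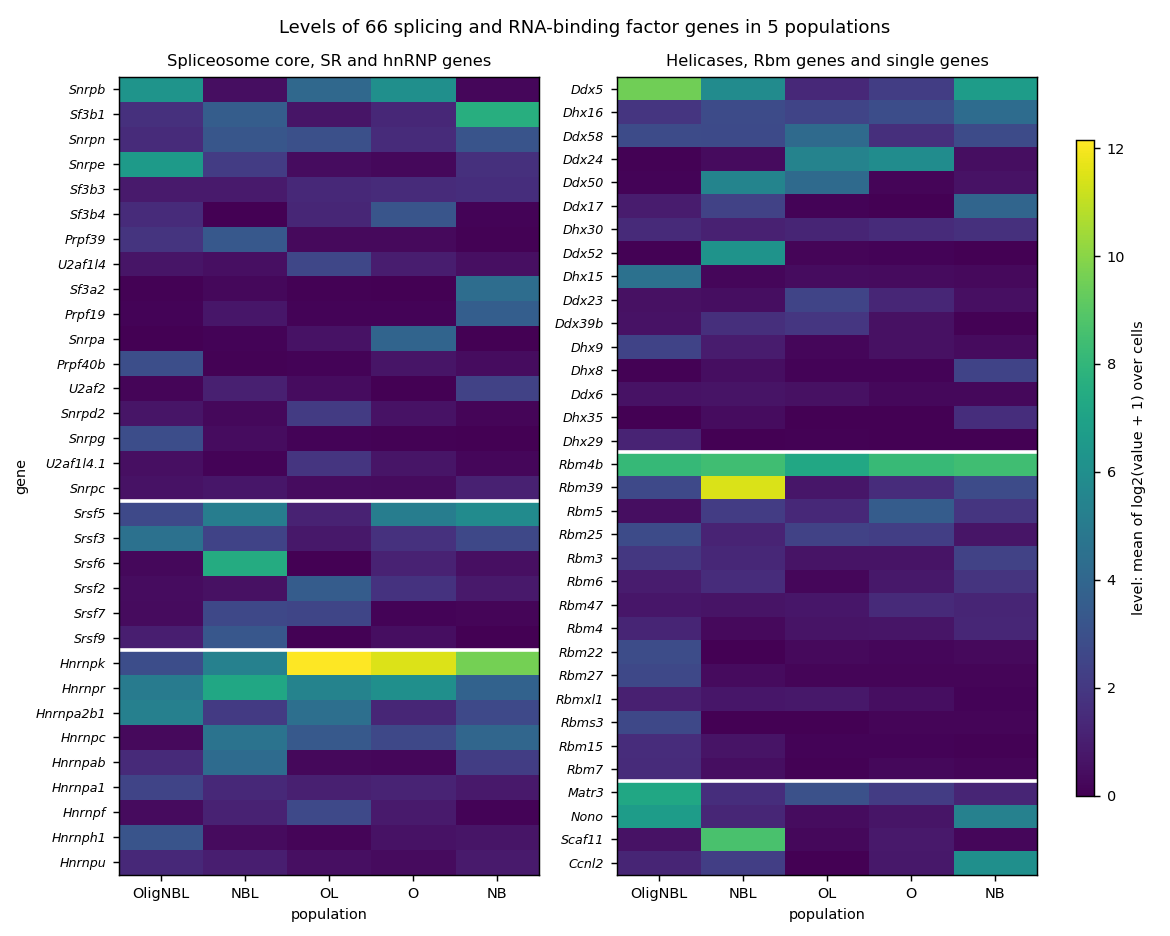
Levels of the 66 genes in the 5 populations (OligNBL, NBL, OL, O and NB), as the mean over cells of log2(value + 1), ordered by role. Rbm39, Scaf11 and Srsf6 stand out in NBL, Hnrnpk is high in OL, O and NB, and Rbm4b is near 8 in all 5 populations.

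The number of these genes with high values in a cell was lower at the median in OL and O than in the other populations. Counted among the 500 highest genes of each cell, the 66 genes supplied 14.5 genes at the median in OligNBL cells (lowest 8, highest 21), 15 in NBL (10 and 19), 11.5 in OL (7 and 16), 10 in O (5 and 15) and 14 in NB cells (9 and 24). The share of the 66 genes in the table would give 9.64 genes in 500. The ranges of all 5 populations overlapped. Genes present among the 500 highest in at least 50% of a population's cells numbered 9 in OligNBL, 12 in NBL, 6 in OL, 4 in O and 9 in NB. The same counts over all genes are not given, so these numbers cannot be read as a trait of the family. In these counts 2 NB cells with fewer than 500 detected genes were left out.

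**Figure D2:**
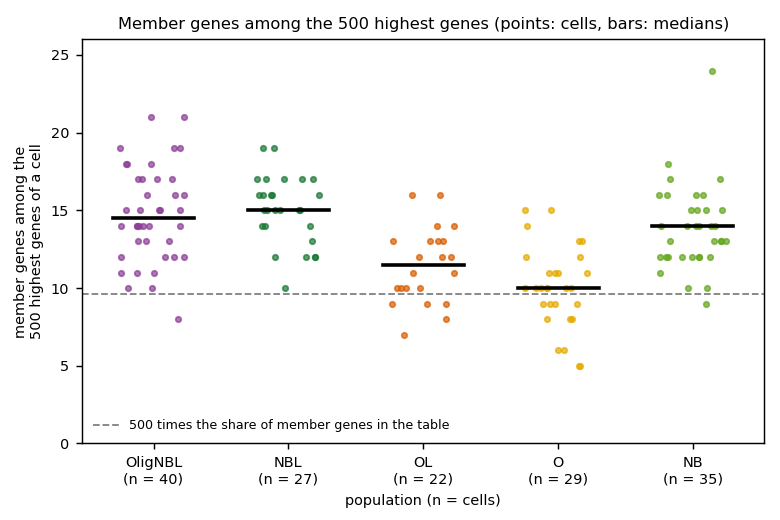
Number of the 66 genes among the 500 highest genes of each cell, 1 point per cell, by population from OligNBL to NB. The medians run from 10 in O to 15 in NBL, and the cells of all 5 populations overlap.

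The population with the highest level differed from gene to gene. Of the 66 genes, 22 were highest in OligNBL, 13 in NBL, 9 in OL, 5 in O and 17 in NB cells. The matching shares over the whole table are not given, so this order cannot be read as a trait of the family. Among the 40 genes past the minimum, 10 (25%) were highest in OligNBL, 11 (27.5%) in NBL, 6 (15%) in OL, 3 (7.5%) in O and 10 (25%) in NB cells. The same shares over all 1864 genes were 18% in OligNBL, 18.1% in NBL, 18.1% in OL, 26.6% in O and 19.2% in NB cells. For each of the 66 genes and each of the 5 comparisons below, the cells of both populations overlapped.

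OligNBL and NBL cells, both from lesioned mice by their labels, differed in different genes of the same families. Higher in OligNBL were 8 genes, led by Snrpb with a difference of 5.85, Matr3 with 5.63, Nono with 5.42, Snrpe with 4.48 and Dhx15 with 4.33. Ddx5, Hnrnpa2b1 and Srsf3 were the others, and these are 20% of the 40, against 14.1% of all genes. Lower in OligNBL were 11 genes (27.5%, against 16.3% of all genes, and 7 genes with a pseudocount of 10), led by Rbm39 with -8.81, Scaf11 with -8.06, Srsf6 with -7.19, Ddx52 with -6.20 and Ddx50 with -5.35. The others were Hnrnpc, Hnrnpab, Hnrnpk, Srsf5, Srsf7 and Hnrnpr. The median difference was -0.46 over the 40 genes and -0.02 over all genes, and the median size of the difference was 1.81 against 0.99. Among the 26 genes under the minimum, Rbm22, Prpf40b, Hnrnph1, Rbms3, Snrpg and Rbm27 were at least 2 higher in OligNBL and Srsf9 was at least 2 lower. Shares over all genes under the minimum are not given, here and in the comparisons below. These genes therefore cannot be read as a trait of the family. For 8 of the 40 genes the sets of OligNBL cells and the sets of NBL cells did not overlap (20%, against 10.2% of all genes): Snrpb, Dhx15, Nono, Matr3 and Sf3b4 above, and Ddx50, Ddx52 and Hnrnpc below.

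Against OL cells, which carry Tomato alone, OligNBL cells were higher in Ddx5, Nono and Snrpe and lower in Hnrnpk. Ddx5 led with a difference of 8.08, followed by Nono with 6.31, Snrpe with 6.22, Matr3 with 4.20 and Dhx15 with 4.13, and then Srsf3 and Snrpb. These 7 genes are 17.5% of the 40, against 15.5% of all genes. The 7 lower genes (17.5%, against 16.3% of all genes) were Hnrnpk with -9.27, Ddx24 with -5.37, Ddx50 with -4.06, Srsf2 with -3.12, Hnrnpc with -3.10, Hnrnpf with -2.29 and Srsf7 with -2.18. Both shares lie close to those of all genes, and 3 genes were lower with a pseudocount of 10. The median difference was 0.35 over the 40 genes and -0.0023 over all genes, with a median size of 1.47 against 1.15. This comparison and the one with NBL share the OligNBL cells, so genes that appear in both are not separate evidence. Sets did not overlap for 7 of the 40 genes (17.5%, against 14.9% of all genes), which were Ddx5, Nono, Snrpe, Dhx15 and Srsf6 above and Hnrnpk and Ddx24 below. With cells joined at a correlation of 0.35 the count was 11. Srsf6 is listed at 0 in all 22 OL cells and its level in OligNBL was 0.28 ± 0.74.

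Lesion was set against control within the GFP strain, where Rbm39, Scaf11 and Srsf6 were higher and Hnrnpk and Sf3b1 lower. In NBL against NB cells, 9 of the 40 genes were higher (22.5%, against 14.7% of all genes): Rbm39 by 8.69, Scaf11 by 8.43, Srsf6 by 6.99, Ddx52 by 6.26, Ddx50 by 4.87, Hnrnpr by 3.40, Prpf39 by 3.27, Srsf7 by 2.49 and Hnrnpab by 2.05. Lower were 4 genes (10%, against 11.6% of all genes), Hnrnpk with -4.29, Sf3b1 with -4.06, Nono with -4.03 and Ccnl2 with -3.79. The median difference was -0.03 over the 40 genes and -0.02 over all genes. Ddx52 had sets that did not overlap between NBL and NB, 1 of 40 genes (2.5%, against 3.97% of all genes), and the count was 4 with cells joined at a correlation of 0.35 and 5 at 0.5. At 0.4, for the other called genes the ranges of the NBL sets and the NB sets overlapped. Under the minimum, Srsf9 was at least 2 higher in NBL, and Sf3a2 and Prpf19 at least 2 lower.

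Within the Tomato strain, lesion was set against control by comparing OL with O cells. In OL, Ddx50 was higher by 3.99, Hnrnpa2b1 by 3.13, Ddx58 by 2.58 and Srsf7 by 2.45, which are 4 of the 40 genes (10%, against 11.2% of all genes). Lower were Srsf5 with -4.00 and Rbm5 with -2.17, 2 of 40 (5%, against 12.3% of all genes). Under the minimum Snrpa was lower by at least 2. The median difference was -0.07 over the 40 genes and -0.23 over all genes. Sets did not overlap for 4 genes (10%, against 11.3% of all genes), with Ddx50 above and Srsf6, Srsf5 and Ccnl2 below. These counts hang on single sets: the number higher was 8 without OL set 1 and 7 without OL set 4, and the number lower was 1 without O set 2, 4 without O set 3 and 4 without OL set 4. With a pseudocount of 10 they were 2 higher and 1 lower. No gene was called in opposite directions in OL against O and NBL against NB, and Ddx50 and Srsf7 were higher in the lesion population in both. How often calls were shared or opposite over all genes is not given, so no shared response can be read from these counts.

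Between the healthy populations, O cells were set against NB cells. Snrpb was higher in O by 5.80, Ddx24 by 5.44, Sf3b4 by 3.05 and Hnrnpr by 2.22, 4 of 40 genes (10%, against 19.4% of all genes). Lower in O were 5 genes (12.5%, against 18.1% of all genes), Sf3b1 with -6.29, Ccnl2 with -5.30, Nono with -4.65, Ddx5 with -4.53 and Ddx17 with -3.92. The median difference was -0.14 over the 40 genes and 0.28 over all genes. Under the minimum, Snrpa was at least 2 higher in O, and Sf3a2, Prpf19, U2af2 and Dhx8 were at least 2 lower. Sets of O and NB cells did not overlap for 10 of the 40 genes (25%, against 28% of all genes): Snrpb, Ddx24, Sf3b4, Rbm25 and Hnrnpf above, and Sf3b1, Ccnl2, Ddx5, Ddx17 and Hnrnpab below. With cells joined at 0.5 the count was 16. The number higher was 2 without O set 2 and 2 with a pseudocount of 10, and the number lower was 8 without NB set 4 and 9 without NB set 5.

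**Figure D3:**
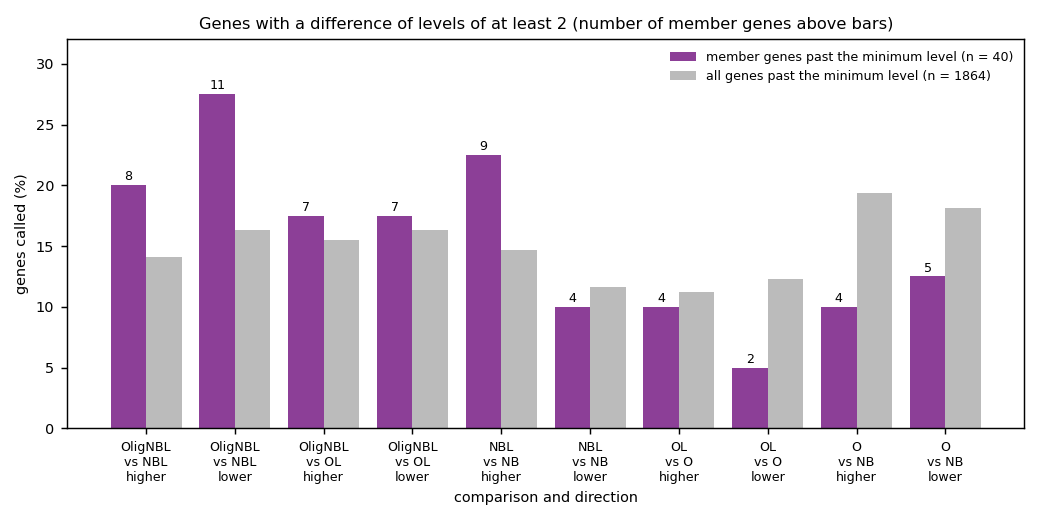
Share of the 40 genes, and of all 1864 genes, called higher or lower by at least 2 in each of the 5 comparisons, in percent. The 40 genes lie above all genes on both sides in OligNBL against NBL, and below them on both sides in O against NB.

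In the spliceosome core, the level of the Sm protein gene Snrpb differed between the populations. Its values ran from 0 to 17.16 with a median of 4.96 in OligNBL cells, from 0 to 5.08 with a median of 0 in NBL, from 0 to 14.35 with a median of 5.11 in OL, from 0 to 17.75 with a median of 5.68 in O and from 0 to 4.39 with a median of 0 in NB cells. Levels were 6.30 ± 4.23 in OligNBL, 0.45 ± 1.25 in NBL, 4.11 ± 3.79 in OL, 6.03 ± 3.80 in O and 0.23 ± 0.81 in NB. The level of Snrpb was thus higher in the 3 populations with Tomato than in both populations sorted on GFP alone. The OL cells were split, with 6.74 in OL set 1 and 7.73 in OL set 4 but 1.66 in OL set 3. OL set 2 was listed at 0, below NB set 1 at 1.33. Snrpb ranked among the 500 highest genes in 31 of 40 (61.5% to 89.2%) OligNBL cells, 2 of 27 (0.91% to 24.3%) NBL cells, 12 of 22 (32.2% to 75.6%) OL cells, 22 of 29 (56.5% to 89.7%) O cells and 0 of 35 (0% to 10%) NB cells, where the brackets give the exact 95% interval, which covers counting error only. Its paralogue Snrpn, which is found mainly in brain, had levels of 1.49 ± 2.48 in OligNBL, 3.23 ± 2.91 in NBL, 2.98 ± 4.03 in OL, 1.51 ± 2.79 in O and 3.14 ± 3.53 in NB, with no call. Reads of these similar genes can be assigned to either of them.

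Snrpe, another Sm protein, had its highest level in OligNBL. It ran from 0 to 19.50 with a median of 4.05 in OligNBL cells, from 0 to 5.63 with a median of 2.43 in NBL, from 0 to 4.24 with a median of 0 in OL, from 0 to 3.45 with a median of 0 in O and from 0 to 8.93 with a median of 0 in NB cells, and ranked among the 500 highest genes in 29 of 40 (56.1% to 85.4%) OligNBL, 11 of 27 (22.4% to 61.2%) NBL, 1 of 22 (0.115% to 22.8%) OL, 0 of 29 (0% to 11.9%) O and 6 of 35 (6.56% to 33.6%) NB cells. The level in OligNBL, 6.62 ± 5.54, came in large part from OligNBL set 4 at 11.56, while OligNBL set 2 lay at 1.79, below NBL set 4 at 3.89. Snrpg, also of the ring, was under the minimum with a level of 2.89 ± 2.70 in OligNBL, 0.42 ± 0.91 in NBL, 0.13 ± 0.47 in OL and 0.07 ± 0.38 in O, and no NB value above 0.01. Snrpd2, of the same ring, had its highest level in OL, 2.12 ± 3.19, against 0.60 ± 1.51 in O. The Sm genes measured thus did not share 1 pattern.

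Sf3b1, the large subunit that binds around the branch point, had its highest level in NB cells. Its values ran from 0 to 12.20 with a median of 0.45 in OligNBL, from 0 to 11.80 with a median of 3.69 in NBL, from 0 to 6.56 with a median of 0 in OL, from 0 to 4.00 with a median of 1.12 in O and from 0 to 20.19 with a median of 6.79 in NB cells, with levels of 3.57 ± 3.20 in NBL and 7.63 ± 4.25 in NB. Sf3b1 ranked among the 500 highest genes in 15 of 27 (35.3% to 74.5%) NBL and 34 of 35 (85.1% to 99.9%) NB cells. The sets of NBL cells ranged widely, with 8.35 in NBL set 1 and 0.48 in NBL set 4, and the sets of NB cells ran from 4.66 in NB set 1 to 11.08 in NB set 5. Sf3a2, of the same particle and under the minimum, was also highest in NB with 4.33 ± 5.42, against 0.27 ± 0.78 in NBL, and is listed at 0 in all 29 O cells. NB set 2 lay at 10.43 and the other NB sets between 0.0017 in NB set 1 and 3.29 in NB set 4. Sf3b3 had levels from 0.88 in OligNBL to 1.60 in NB and was never called. Sf3b4 was listed at 0 in all 27 NBL cells and had levels of 1.48 ± 2.62 in OligNBL, 1.28 ± 2.58 in OL, 3.18 ± 4.46 in O and 0.14 ± 0.83 in NB. The O level of Sf3b4 came from O set 2 at 8.27, with 0.97 in O set 1 and 0.92 in O set 3.

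The remaining core genes were lower or more scattered. Prpf39, a protein of the particle that marks the 5′ splice site, had levels of 1.84 ± 2.71 in OligNBL, 3.33 ± 4.18 in NBL, 0.31 ± 0.99 in OL, 0.31 ± 1.10 in O and 0.06 ± 0.30 in NB, with NBL set 4 at 8.94 and 2 NBL sets listed at 0. It overlaps Fkbp3 in the annotation, and no source names the strand of counting, so reads of overlapping genes may be shared. Prpf19, a ubiquitin ligase of the spliceosome, and U2af2, which binds the pyrimidine tract before the 3′ splice site, were under the minimum and highest in NB, with 3.62 ± 4.42 and 2.38 ± 2.61, while in O their levels were 0.11 ± 0.39 and 0.02 ± 0.11. Prpf40b, a protein linked to the same 5′ splice site particle, was highest in OligNBL with 2.90 ± 3.36, against 0.06 ± 0.24 in NBL and 0.14 ± 0.46 in OL. Snrpa, a protein of that particle too, reached 3.93 ± 5.45 in O cells, against 0.57 ± 2.21 in OL, and is listed at 0 in all 40 OligNBL cells. Snrpc was never called. U2af1l4, a relative of the small U2af subunit, appears in 2 rows, and neither was called. Over the 8 core genes past the minimum, 2 were higher and 0 lower in OligNBL against NBL, 2 and 0 in OligNBL against OL, 1 and 1 in NBL against NB, 0 and 0 in OL against O, and 2 and 1 in O against NB. The shares of all genes called ran from 11.2% to 19.4% over these comparisons and directions. Beside them, counts out of so few genes are descriptions only, here and for the roles below.

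Promoter sequences are shown for 5 genes on which the comparisons turn, 3 that were high in OligNBL (Snrpe, Dhx15 and Nono) and the 2 with the largest difference between NBL and NB (Rbm39 and Scaf11), so that their motif content can be read beside the levels. Each is the 250 bases before the annotated start, from RefSeq on GRCm38.p6, 5′ to 3′ on the gene's strand, and capitals mark the motifs GGGCGG (bound by Sp factors), CCAAT (bound by NF-Y) and CCGGAA (bound by ETS factors) on either strand. Snrpe lies at chr1:133610281-133610530 on the minus strand, Dhx15 at chr5:52190547-52190796 on the minus strand, Nono at chrX:101429401-101429650 on the plus strand, Rbm39 at chr2:156180239-156180488 on the minus strand and Scaf11 at chr15:96460844-96461093 on the minus strand.
Snrpe: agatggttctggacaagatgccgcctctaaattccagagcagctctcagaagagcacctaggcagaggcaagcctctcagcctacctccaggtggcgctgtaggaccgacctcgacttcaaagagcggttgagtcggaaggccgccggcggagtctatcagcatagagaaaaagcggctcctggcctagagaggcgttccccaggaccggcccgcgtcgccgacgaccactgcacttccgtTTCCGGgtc
Dhx15: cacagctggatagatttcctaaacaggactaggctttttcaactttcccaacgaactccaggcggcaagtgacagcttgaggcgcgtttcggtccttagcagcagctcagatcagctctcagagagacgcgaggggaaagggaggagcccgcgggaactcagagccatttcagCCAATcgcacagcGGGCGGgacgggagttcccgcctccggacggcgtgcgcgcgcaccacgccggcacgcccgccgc
Nono: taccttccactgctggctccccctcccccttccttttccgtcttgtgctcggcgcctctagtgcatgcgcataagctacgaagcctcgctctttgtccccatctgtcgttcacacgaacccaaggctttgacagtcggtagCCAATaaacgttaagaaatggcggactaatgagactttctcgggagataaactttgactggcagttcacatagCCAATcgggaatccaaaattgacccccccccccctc
Rbm39: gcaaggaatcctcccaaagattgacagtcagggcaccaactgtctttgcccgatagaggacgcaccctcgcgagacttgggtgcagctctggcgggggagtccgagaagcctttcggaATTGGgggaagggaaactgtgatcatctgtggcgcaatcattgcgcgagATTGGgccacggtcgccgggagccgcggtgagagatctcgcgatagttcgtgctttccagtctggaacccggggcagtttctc
Scaf11: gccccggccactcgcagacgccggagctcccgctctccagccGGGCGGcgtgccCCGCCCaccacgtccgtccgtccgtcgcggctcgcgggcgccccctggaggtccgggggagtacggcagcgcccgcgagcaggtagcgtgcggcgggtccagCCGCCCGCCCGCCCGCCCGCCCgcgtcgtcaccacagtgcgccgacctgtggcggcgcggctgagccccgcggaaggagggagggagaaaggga
The Snrpe window holds 1 CCGGAA, Dhx15 holds 1 GGGCGG and 1 CCAAT, Nono and Rbm39 hold 2 CCAAT each, and Scaf11 holds 7 GGGCGG, counting overlapping matches. None of the 5 windows holds TATAAA. The 5 genes were picked for their levels, and the part of these motifs in the levels was not tested. The Nono window lies past the start of Nono in GENCODE vM21, at 101429318, and so inside the gene as annotated there. Promoters were found for 56 of the 66 genes, and GGGCGG was in 50% of these, against 59% of the 2497 genes of the table with a promoter and 32.9% of all 27025 promoters. CCAAT was in 53.6% of the 56, against 37.2% of the genes of the table and 34.5% of all promoters. CCGGAA was in 41.1%, against 22.7% and 12.2%, and TATAAA in 14.3%, against 7.05% and 13%. A match of letters is a description and not a bound site.

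Among genes for SR proteins, Srsf6 had the widest gap. Its values ran from 0 to 3.53 with a median of 0 in OligNBL, from 0 to 19.50 with a median of 3.14 in NBL, from 0 to 10.00 with a median of 0 in O and from 0 to 8.13 with a median of 0 in NB cells, and it is listed at 0 in all 22 OL cells. For presence among the 500 highest genes, 0 of 22 OL cells allows a share of up to 15.4% (exact 95% interval). In NBL the level was 7.47 ± 7.05, with 15.13 in NBL set 3, 4.91 in NBL set 2, 2.22 in NBL set 4 and 0 in NBL set 1. The NBL difference thus rests mainly on NBL set 3, which holds 11 of the 27 NBL cells. Srsf5 showed a different order, with from 0 to 16.20 with a median of 1.71 in OligNBL, from 0 to 13.43 with a median of 4.79 in NBL, from 0 to 11.72 with a median of 0 in OL, from 0 to 18.99 with a median of 1.94 in O and from 0 to 15.86 with a median of 6.09 in NB cells. Its level of 5.16 ± 5.89 in O came from O set 1 at 11.07, while O set 2 and O set 3 lay at 2.59 and 2.19, and the OL level was 1.16 ± 2.57.

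Srsf7 was high in some sets of NBL and OL cells. It had levels of 0.38 ± 1.63 in OligNBL, 2.64 ± 3.56 in NBL, 2.56 ± 3.78 in OL, 0.11 ± 0.39 in O and 0.15 ± 0.94 in NB cells. NBL set 4 with 7.07 and OL set 1 with 6.85 carried most of it. Srsf3 was highest in OligNBL, with 4.53 ± 4.32 in OligNBL, 2.45 ± 2.77 in NBL, 0.77 ± 1.81 in OL, 1.73 ± 3.29 in O and 2.64 ± 3.22 in NB cells. Srsf2 was highest in OL, with 0.42 ± 0.95 in OligNBL, 0.57 ± 1.00 in NBL, 3.54 ± 4.04 in OL, 1.77 ± 2.08 in O and 0.81 ± 1.59 in NB cells, and it overlaps Mettl23. OL set 3 lay at 7.48 and the other OL sets between 1.20 and 1.39. Srsf9, under the minimum, reached 3.31 ± 4.38 in NBL, against 0.03 ± 0.16 in NB cells. Of the 5 SR genes past the minimum, 1 was higher and 3 lower in OligNBL against NBL with a median difference of -2.27 (-2.28 over all 6, and -1.25 over the 5 with a pseudocount of 10), 1 and 2 in OligNBL against OL, 2 and 0 in NBL against NB, 1 and 1 in OL against O, and 0 and 0 in O against NB. The median difference over all genes in OligNBL against NBL was -0.02.

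Hnrnpk, which binds runs of C in RNA and DNA, had the largest difference between OligNBL and OL on the lower side. Its values ran from 0 to 15.58 with a median of 2.07 in OligNBL, from 0 to 15.47 with a median of 5.01 in NBL, from 5.91 to 20.19 with a median of 12.32 in OL, from 4.56 to 18.99 with a median of 12.14 in O and from 0 to 19.50 with a median of 11.39 in NB cells. Levels were 2.87 ± 3.29 in OligNBL, 5.33 ± 3.58 in NBL, 12.14 ± 4.09 in OL, 11.50 ± 3.31 in O and 9.63 ± 5.93 in NB. Hnrnpk ranked among the 500 highest genes in 14 of 40 (20.6% to 51.7%) OligNBL cells, 19 of 27 (49.8% to 86.2%) NBL cells, 22 of 22 OL cells, 29 of 29 O cells and 27 of 35 (59.9% to 89.6%) NB cells. OligNBL thus lay lowest and NBL next, below OL, O and NB, and the gap of 0.64 between OL and O is small beside their SDs. Within NBL the sets ran from 2.49 in NBL set 4 to 9.52 in NBL set 1, and within NB from 5.31 in NB set 2 to 15.69 in NB set 5.

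Hnrnpc, which binds runs of U in nascent RNA, was nearly missing in OligNBL. Hnrnpc ranked among the 500 highest genes in 0 of 40 (0% to 8.81%) OligNBL cells, 16 of 27 (38.8% to 77.6%) NBL cells, 9 of 22 (20.7% to 63.6%) OL cells, 8 of 29 (12.7% to 47.2%) O cells and 14 of 35 (23.9% to 57.9%) NB cells. Levels were 0.31 ± 0.61 in OligNBL, 4.63 ± 3.34 in NBL, 3.41 ± 4.05 in OL, 2.65 ± 3.43 in O and 3.99 ± 4.98 in NB. Hnrnpr was detected in most cells, with from 1.49 to 12.65 with a median of 4.37 in OligNBL, from 4.13 to 10.74 with a median of 7.16 in NBL, from 2.17 to 9.17 with a median of 5.29 in OL, from 4.20 to 9.92 with a median of 5.84 in O and from 0 to 10.60 with a median of 3.94 in NB cells. Levels of Hnrnpr were 5.08 ± 2.55 in OligNBL, 7.21 ± 1.82 in NBL, 5.45 ± 1.62 in OL, 6.03 ± 1.13 in O and 3.82 ± 2.66 in NB, and no cell outside NB was listed at 0. Hnrnpab had 1.47 ± 1.82 in OligNBL, 4.24 ± 4.62 in NBL, 0.26 ± 0.70 in OL, 0.21 ± 0.62 in O and 2.19 ± 2.36 in NB cells, with NBL set 4 at 10.12, and it overlaps Phykpl.

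Hnrnpa2b1, a shuttling protein that also sorts RNA into transport granules, was unevenly spread over sets. Its level was 5.29 ± 5.22 in OligNBL, 2.06 ± 1.95 in NBL, 4.46 ± 4.53 in OL, 1.33 ± 1.76 in O and 2.66 ± 2.61 in NB cells. OligNBL set 4 lay at 12.24 and the other OligNBL sets between 1.95 and 3.82, and in OL, set 2 (3 cells) lay at 12.36 and set 3 (8 cells) at 5.88, above OL set 1 at 1.42 and OL set 4 at 0.86. Hnrnph1, under the minimum, ranked among the 500 highest genes in 19 of 40 (31.5% to 63.9%) OligNBL cells and 0 of 27 (0% to 12.8%) NBL cells. Hnrnpf, its close relative, was highest in OL with 2.67 ± 4.06, against 0.89 ± 2.11 in O, and the OL value came from OL set 3 at 7.34, with the other OL sets at 0. Hnrnpa1 and Hnrnpu were never called. Of the 7 hnRNP genes past the minimum, 1 was higher and 4 lower in OligNBL against NBL with a median difference of -2.14 (-0.80 over all 9, with 2 higher and 4 lower), 0 and 3 in OligNBL against OL, 2 and 1 in NBL against NB, 1 and 0 in OL against O, and 1 and 0 in O against NB. Over all genes the median difference in OligNBL against NBL was -0.02.

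**Figure D4:**
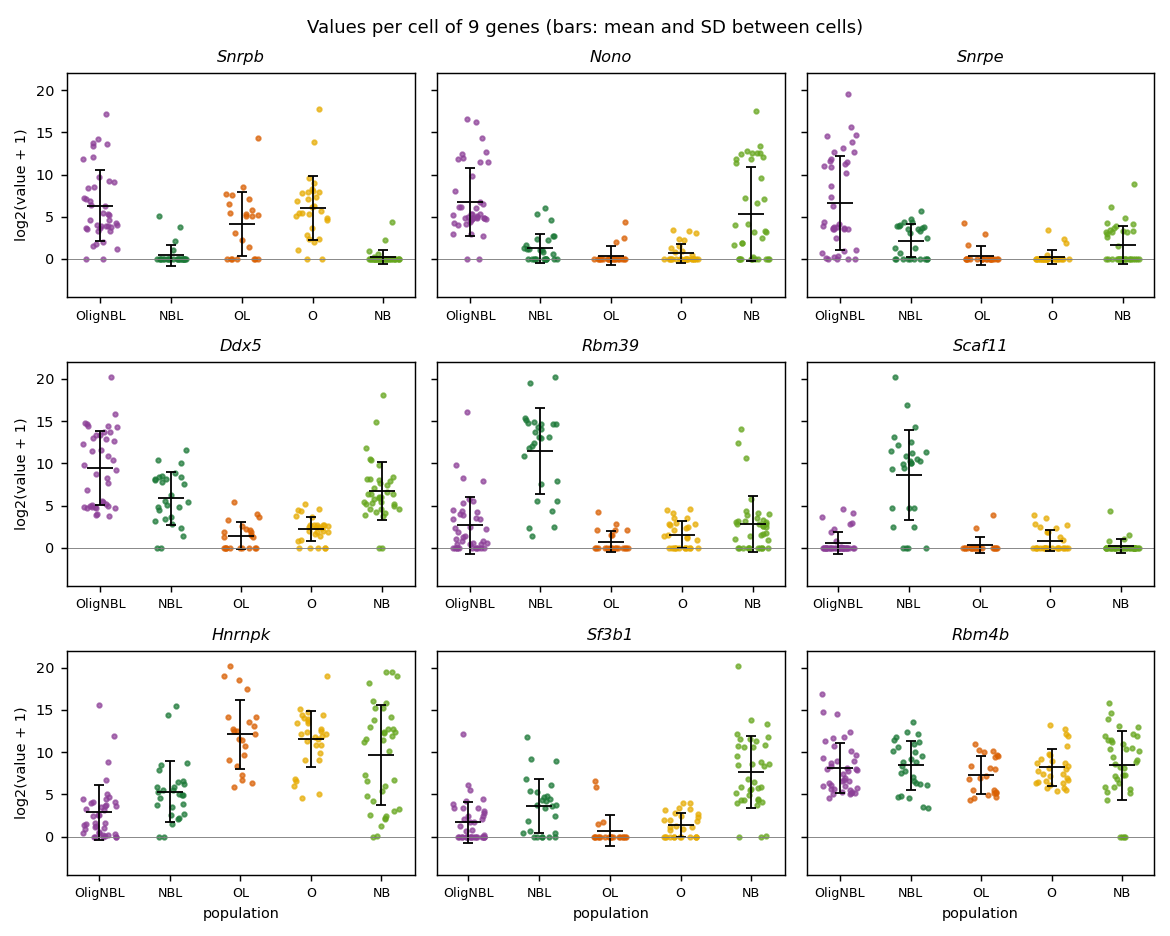
Values of leading genes in single cells as log2(value + 1), 1 point per cell, by population from OligNBL to NB, with the mean and the SD between cells. Cells of the populations overlap for every gene shown, and the points of a population often fall into a high and a low group.

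Among the helicases, Ddx5, a DEAD box protein that acts in splicing and as a coactivator of transcription, was found in every OligNBL cell. Its values ran from 3.74 to 20.19 with a median of 9.47 in OligNBL, from 0 to 11.58 with a median of 5.54 in NBL, from 0 to 5.47 with a median of 1.26 in OL, from 0 to 5.21 with a median of 2.42 in O and from 0 to 18.14 with a median of 6.05 in NB cells. Levels were 9.49 ± 4.39 in OligNBL, 5.88 ± 3.13 in NBL, 1.41 ± 1.61 in OL, 2.20 ± 1.46 in O and 6.73 ± 3.42 in NB, so the 3 populations with the Gad1 reporter lay above both sorted on Tomato alone. Its paralogue Ddx17 had 0.93 ± 1.26 in OligNBL, 2.38 ± 3.41 in NBL, 0.11 ± 0.54 in OL, 0.05 ± 0.25 in O and 3.96 ± 4.94 in NB cells, and NB set 1 stood at 14.64. Dhx15, which takes spliceosomes apart after splicing, was near 0 outside OligNBL. Dhx15 ranked among the 500 highest genes in 24 of 40 (43.3% to 75.1%) OligNBL cells, 0 of 27 (0% to 12.8%) NBL cells, 1 of 22 (0.115% to 22.8%) OL cells, 0 of 29 (0% to 11.9%) O cells and 2 of 35 (0.7% to 19.2%) NB cells, with a level of 4.53 ± 4.38 in OligNBL. OligNBL set 2 stayed at 0.66 and OligNBL set 5 reached 7.28.

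The nucleolar helicases Ddx52, Ddx50 and Ddx24 gave 3 separate patterns. Ddx52 had its highest level in NBL cells, with from 0 to 2.02 with a median of 0 in OligNBL, from 0 to 20.19 with a median of 4.72 in NBL, from 0 to 3.09 with a median of 0 in OL and from 0 to 1.85 with a median of 0 in O, and no NB value above 0.01. NBL set 2 lay at 16.49 and the other NBL sets between 3.31 and 5.61, so every NBL set was above every set of the other populations. Ddx50 was present in both lesion populations sorted on 1 reporter, with 0.12 ± 0.36 in OligNBL, 5.47 ± 5.15 in NBL, 4.18 ± 4.80 in OL, 0.19 ± 0.48 in O and 0.60 ± 2.12 in NB cells. Its high sets were NBL set 3 at 10.61 and OL set 1 at 8.81. Ddx24 went with the Tomato reporter alone, with 0.06 ± 0.23 in OligNBL, 0.37 ± 0.92 in NBL, 5.43 ± 4.36 in OL, 5.91 ± 6.30 in O and 0.47 ± 1.16 in NB cells. O set 2 with 13.65 and OL set 4 with 12.03 were its highest sets.

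The other helicases moved less. Ddx58, the sensor of viral RNA known as RIG-I, had 4.22 ± 4.22 in OL against 1.64 ± 3.15 in O cells, and between 2.73 and 2.77 in OligNBL, NBL and NB. Dhx16 and Ddx23, which drive steps of spliceosome activation, and Dhx30 were past the minimum and never called. Dhx16 ranked among the 500 highest genes in 13 of 29 (26.4% to 64.3%) O and 20 of 35 (39.4% to 73.7%) NB cells. Under the minimum, Dhx9 reached 2.46 ± 2.86 in OligNBL against 0.22 ± 0.75 in OL, and Dhx8 reached 2.43 ± 3.11 in NB. Ddx39b, Ddx6, Dhx29 and Dhx35 were never called. Of the 10 helicases past the minimum, 2 were higher and 2 lower in OligNBL against NBL, 2 and 2 in OligNBL against OL, 2 and 0 in NBL against NB, 2 and 0 in OL against O, and 1 and 2 in O against NB.

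Rbm39, an SR-like protein related to the large U2af subunit, had the largest difference of any of the 40 genes between NBL and NB. Its values ran from 0 to 16.06 with a median of 1.33 in OligNBL, from 1.45 to 20.19 with a median of 13.12 in NBL, from 0 to 4.19 with a median of 0 in OL, from 0 to 4.58 with a median of 1.28 in O and from 0 to 14.02 with a median of 2.52 in NB cells. Levels were 2.66 ± 3.37 in OligNBL, 11.47 ± 5.06 in NBL, 0.74 ± 1.21 in OL, 1.54 ± 1.58 in O and 2.78 ± 3.32 in NB. Rbm39 ranked among the 500 highest genes in 24 of 27 (70.8% to 97.6%) NBL cells and 8 of 35 (10.4% to 40.1%) NB cells. NBL set 2 at 4.28 lay below NB set 5 at 4.91, while NBL set 1 at 16.40, NBL set 3 at 13.90 and NBL set 4 at 8.69 lay above every NB set.

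Rbm4b, a regulator of exon choice, had similar levels in all 5 populations. Its levels were 8.12 ± 2.98 in OligNBL, 8.43 ± 2.88 in NBL, 7.29 ± 2.23 in OL, 8.20 ± 2.23 in O and 8.44 ± 4.10 in NB cells, a range of 1.15. Rbm4b ranked among the 500 highest genes in 40 of 40 OligNBL, 25 of 27 NBL, 22 of 22 OL, 29 of 29 O and 31 of 35 NB cells. Its near-identical neighbour Rbm4 was under the minimum, and reads may be split between the pair or shared with Gm21992, which overlaps both. Rbm5, which favours exon skipping in apoptosis genes, had 0.45 ± 0.94 in OligNBL, 2.16 ± 2.06 in NBL, 1.38 ± 1.69 in OL, 3.55 ± 3.22 in O and 1.85 ± 2.71 in NB cells. Rbm25, Rbm3, a cold-induced protein, and Rbm6 were past the minimum and never called. Under the minimum, Rbm22, a protein of the catalytic spliceosome, had 2.84 ± 3.59 in OligNBL and is listed at 0 in all 27 NBL cells, and Rbms3 ranked among the 500 highest genes in 16 of 40 (24.9% to 56.7%) OligNBL cells and 0 of 27 (0% to 12.8%) NBL cells. Rbm27 had 2.65 ± 4.26 in OligNBL against 0.37 ± 0.97 in NBL, and Rbm15, Rbm7, Rbm47 and Rbmxl1 were never called.

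The 4 single genes did not all share a pattern, but pairs of them shared calls. Nono and Matr3 were both higher in OligNBL against NBL and against OL. Nono and Ccnl2 were both lower in NBL against NB and in O against NB. Nono, a paraspeckle protein, ran from 0 to 16.62 with a median of 5.16 in OligNBL, from 0 to 6.04 with a median of 0.80 in NBL, from 0 to 4.33 with a median of 0 in OL, from 0 to 3.42 with a median of 0 in O and from 0 to 17.50 with a median of 3.17 in NB cells, and its levels were 6.71 ± 4.03 in OligNBL and 5.32 ± 5.52 in NB. All 5 OligNBL sets lay between 6.18 and 9.22, whereas NB was split between 0.63 in NB set 1 and 11.52 in NB set 5. Matr3, a protein of the nuclear matrix, ran from 0 to 17.75 with a median of 6.25 in OligNBL, from 0 to 7.85 with a median of 0 in NBL, from 0 to 11.83 with a median of 2.14 in OL, from 0 to 15.58 with a median of 1.77 in O and from 0 to 13.25 with a median of 0 in NB cells. Matr3 ranked among the 500 highest genes in 33 of 40 (67.2% to 92.7%) OligNBL cells, 4 of 27 (4.19% to 33.7%) NBL cells, 6 of 22 (10.7% to 50.2%) OL cells, 4 of 29 (3.89% to 31.7%) O cells and 3 of 35 (1.8% to 23.1%) NB cells, and it overlaps Gm28285.

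Scaf11, an SR-related splicing protein, ran from 0 to 4.55 with a median of 0 in OligNBL, from 0 to 20.19 with a median of 10.05 in NBL, from 0 to 3.90 with a median of 0 in OL, from 0 to 3.83 with a median of 0 in O and from 0 to 4.39 with a median of 0 in NB cells. Its level in NBL was 8.64 ± 5.35, with 13.61 in NBL set 4, 10.80 in NBL set 3, 3.61 in NBL set 2 and 0 in NBL set 1. It is listed at 0 in 4 of 27 NBL cells, among them the 3 of NBL set 1. Ccnl2, a cyclin that localises to splicing speckles, had levels of 1.25 ± 3.22 in OligNBL, 2.27 ± 2.03 in NBL, 0.76 ± 1.39 in O and 6.06 ± 3.66 in NB cells and is listed at 0 in all 22 OL cells. In NB its sets ran from 2.62 in NB set 1 to 7.16 in NB set 2.

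**Figure D5:**
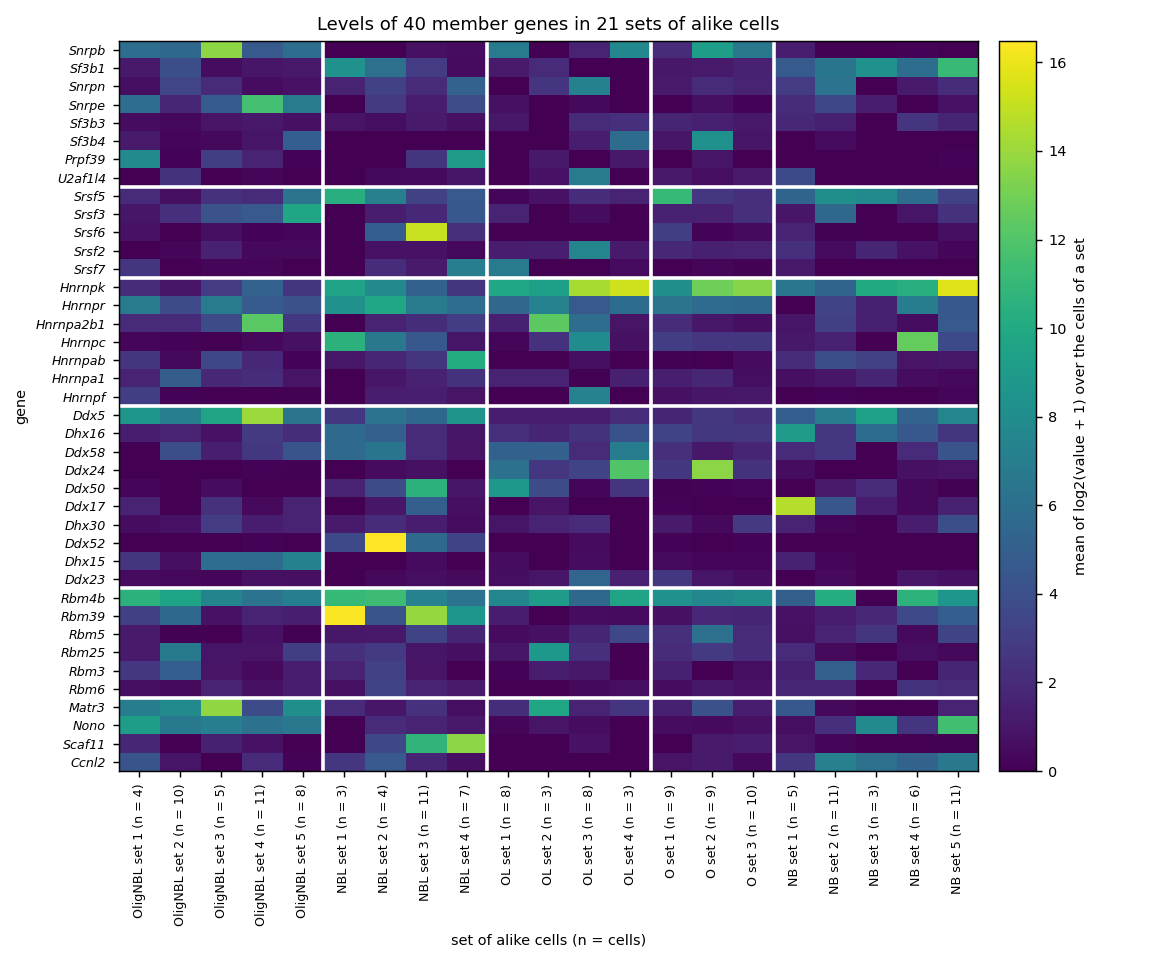
Levels of the 40 genes past the minimum in the 21 sets of alike cells as the mean over the cells of a set of log2(value + 1), grouped by population from OligNBL to NB. The Ddx52 value of NBL set 2, the Srsf6 value of NBL set 3 and the Snrpb value of OligNBL set 3 stand above the other sets of their populations.

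A set that joins cells of a lesioned and a healthy population allows a comparison inside 1 set, although few cells remain. Its cells also entered the population levels that gave the calls. Agreement in direction is therefore partly built in, for all genes as well, and the counts are descriptions and not separate support. NBL set 1 (3 cells) and NB set 4 (6 cells) belong to 1 joined set. Of the 13 genes called between NBL and NB, 4 differed by at least 2 in the same direction inside it (30.8%, against 16.9% of all 490 called genes), and 1, Sf3b1, differed the other way. Rbm39 lay at 16.40 in NBL set 1 and 3.67 in NB set 4, and Ddx52 at 3.62 and 0. Ccnl2 lay at 2.60 in NBL set 1 and 5.26 in NB set 4, and Nono at 0 and 2.56. Scaf11, Srsf6, Srsf7 and Prpf39 are listed at 0 on both sides. OL set 4 (3 cells) and O set 2 (9 cells) form another joined set, in which 3 of the 6 genes called between OL and O differed by at least 2 in the same direction (50%, against 16.6% of all 439 called genes). They were Ddx50 with 2.49 in OL set 4 and 0.16 in O set 2, Ddx58 with 7.02 and 1.09, and Rbm5 with 3.55 and 6.12.

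With the minimum left aside, 24 of the 66 genes differed by less than 2 in all 5 comparisons (36.4%, against 44.6% of all 3422 genes). Of these, 11 were among the 40 past the minimum (27.5%, against 28% of all 1864 genes): Rbm4b, Dhx16, Ddx23, Dhx30, Rbm3, Rbm6, Rbm25, Sf3b3, Hnrnpa1, U2af1l4 and Snrpn. The range of their 5 population levels ran from 0.55 for Dhx30 to 2.40 for Dhx16. Dhx30 overlaps Smarcc1, Sf3b3 overlaps Cog4, U2af1l4 overlaps Psenen and Snrpn overlaps Gm38393 in the annotation.

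The 40 genes showed no common course from cell to cell. Across all cells of the 5 populations, the median correlation of their levels with each other was -0.02, as against -0.03 over all 1864 genes, with SDs of 0.17 over the pairs of each. After each population's level was taken off, the medians were -0.0062 and -0.01. The highest correlation was that of Prpf39 with Hnrnpab, at r = 0.68 and 0.66 after the population level was taken off. Hnrnpf with Srsf2 gave 0.59 and 0.54. Scaf11 with Rbm39 gave 0.54 but -0.08 once the population level was taken off. The lowest was Snrpb with Sf3b1 at -0.39, and -0.04 after the same step. Cells share their set and the scaling of the table, so these values are descriptions only.

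Other genes of RNA processing, from a list of 166 that act in splicing, 3′ end formation, export and RNA binding, gave 64 in the table and 42 past the minimum. In OligNBL against NBL, 9 were higher (21.4%) and 10 lower (23.8%), and with a pseudocount of 10 only 1 was higher. Nxf1, the main export receptor of mRNA, was higher by 5.30, Celf2 by 3.44 and Mbnl1 by 2.94, both regulators of alternative splicing. Celf3 was lower with -5.58, Ewsr1 with -5.50 and Srrm1, a splicing coactivator, with -5.18. In OligNBL against OL, 10 were higher (23.8%), led by Nxf1 with 4.10, Sfpq, the partner of Nono, with 4.07 and Celf2 with 3.54. Lower were 8 (19%), led by Eif4a3, a core protein of the exon junction complex, with -5.87, Plrg1 with -5.53 and Ptbp2, the neuronal form of the polypyrimidine tract protein, with -4.46. With a pseudocount of 10, 3 were higher and 4 lower.

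In NBL against NB, 11 of the 42 were higher (26.2%), led by Celf3 with 8.27, Srrm1 with 5.35 and Txnl4a with 5.28, and 5 were lower (11.9%), led by Nxf1 with -6.42, Pnn with -4.08 and Cpsf4 with -4.04. Celf3 averaged 8.96 ± 4.78 in NBL and 0.69 ± 2.54 in NB cells. In OL against O, 6 were higher (14.3%) and 5 lower (11.9%), or 2 lower with a pseudocount of 10. Eif4a3 averaged 5.87 ± 5.80 in OL and 0.06 ± 0.32 in O cells, and Ptbp2 5.37 ± 5.56 in OL and 0.15 ± 0.53 in O, whereas Nxf1 averaged 2.20 ± 3.19 in OL and 5.98 ± 4.84 in O. Son was higher by 4.26, and Pcbp4 was lower with -2.48. In O against NB, 7 were higher (16.7%), led by Plrg1 with 6.22, Tardbp with 5.12 and Fubp1 with 5.10, and 6 were lower (14.3%), led by Ewsr1 with -6.08, Pnn with -4.91 and Cpsf4 with -4.66. For the 5 comparisons the shares over all genes are those given above.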

How the data were processed

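Polyadenylated RNA of single cells was read by SMART-Seq2. The tools were kallisto and limma, on build GRCm38, per the submitters' processing notes. Not given in the sources used here were tool versions. The table deposited by the authors is named as estimated counts for 3422 genes, but its values are a normalized signal: column totals ran from 5155900 to 5161090 in all cells. Sequencing depth is therefore unknown. As log2(value + 1), the highest value was 20.19 for Ddx5 in OligNBL, Rbm39 in NBL, Hnrnpk in OL, Ddx24 in O and Sf3b1 in NB. The size of a difference is thus on the scale of this signal and is not a measured ratio of abundance. No source used here gives how the 3422 genes were chosen.

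Cells were grouped by the population label. The genes studied, the lists, the threshold, the minimum level and the joining of cells were chosen with earlier results of these data known. Levels were means of log2(value + 1). A pseudocount understates the difference of low genes. Presence was rank among a cell's 500 highest genes, with exact Clopper-Pearson 95% intervals for counting error only, taking cells as independent. Genes detected were those above a cell's lowest value, and 2 NB cells with fewer than 500 were left out of presence. Named genes were, per comparison, up to 8 each way with the largest difference past the minimum, up to 4 per role with the highest mean level, and up to 3 each way of the other RNA processing genes. Any of the 66 could be named besides. Sets of alike cells were made without the 66 genes. Doublets were not called. The level and call steps were run on each gene's values permuted between cells, with a shift added to chosen genes. Permuting removes the sets of alike cells, so this checked the steps and not the calls reported here. Alternatives covered the pseudocount, the minimum, the threshold, the joining correlation, the rank limit and the cells used. Computation used matplotlib 3.10.9, scipy 1.17.1, pandas 2.3.3 and numpy 2.4.6 on Python 3.11.15. A gene that the naming rule picks is not reported here.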

Additional observations from a re-analysis of the deposited data

How the results depend on the processing

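With 1 sample per population, no result has a replicate check, and counts of genes called moved with the settings. No paired analysis was possible because no cell carries a replicate number that links populations. Given as higher and lower of the 40 genes, leaving out 1 set of alike cells gave 7 to 8 and 9 to 12 for OligNBL against NBL, 7 to 9 and 5 to 9 for OligNBL against OL, 6 to 9 and 4 to 5 for NBL against NB, 4 to 8 and 1 to 4 for OL against O, and 2 to 6 and 5 to 9 for O against NB.

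With a pseudocount of 10, the number lower was 7 in OligNBL against NBL and 3 in OligNBL against OL, OL against O gave 2 higher and 1 lower, and O against NB gave 2 higher. Of the other RNA processing genes, that setting left 1 higher in OligNBL against NBL, 3 higher and 4 lower in OligNBL against OL, and 2 lower in OL against O. Without a minimum level the counts were 14 higher in OligNBL against NBL, 14 higher in OligNBL against OL and 9 lower in O against NB. With a minimum of 2 they were 7 lower in OligNBL against NBL, 4 lower in OligNBL against OL, 4 higher in NBL against NB and 1 lower in OL against O. A difference of at least 1 gave 17 lower in OligNBL against NBL, 14 higher and 11 lower in OligNBL against OL, 7 lower in NBL against NB, 9 higher and 5 lower in OL against O, and 7 higher and 15 lower in O against NB. A difference of at least 3 gave 6 lower in OligNBL against NBL, and 2 higher and 1 lower in OL against O. With sets weighted equally, OL against O gave 1 lower. With the 111 cells of at least 1000 detected genes, OL against O gave 7 higher and 1 lower and O against NB 10 lower. Without the 12 cells numbered up to 21, OL against O gave 4 lower. The cause of these moves was not tested. Shares of all genes are not given for these alternative settings, nor for the counts without single sets. Whether the gaps between the genes studied and all genes hold under them therefore cannot be read from these counts.

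Genes present in at least 50% of cells numbered 5 in OligNBL and 6 in NBL among the 300 highest genes. By detection at all they numbered 32 in OligNBL, 28 in NBL, 16 in OL, 19 in O and 25 in NB. Counts over all genes are not given for these measures, and the number of genes detected per cell differs between populations. Sets joined at 0.35 did not overlap for 11 genes in OligNBL against OL and 4 in NBL against NB, and sets joined at 0.5 for 5 in NBL against NB and 16 in O against NB. Correlations and per-cell medians moved by less than their spread under every alternative run for them. Medians by role were rerun only with a pseudocount of 10, where the SR median in OligNBL against NBL was -1.25. Some small medians changed sign there. In NBL against NB the core median went from 0.03 to -0.08 and the Rbm median from 0.15 to -0.15. Leaving out the 2 NB cells with few genes, or the 4 cells of the set that joins NB, O and OligNBL, both chosen after seeing the data, moved no count by over 1.5 times.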
